A study of Homo sapiens with 6 samples.

Results

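Interferon-stimulated genes are the genes that a cell switches on when it senses interferon or viral nucleic acid. Here 40 of them were matched by name in a table of gene expression values. The list of names was chosen with earlier results of these data known. All 40 have a row. They occupy 39 of the 18268 rows, because IFITM1 and IFITM2 share the row IFITM2;IFITM1. The rows DDX58;TOPORS, RNF31;IRF9 and TRIM22;OR56B1 each join a member to a gene outside the list, and such a value cannot be assigned to 1 gene, so it is reported under the whole name.

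Total RNA was sequenced from MIA PaCa-2, an established human pancreatic carcinoma cell line that the labels call epithelial. The control cells carried the empty vector pCDH, a lentiviral expression vector, and the other cells overexpressed the long noncoding RNA LINC00901. There were 3 libraries in each group, grown in the same serum-containing medium, and the comparison asked which genes differ with the overexpression. The labels do not say whether the replicates were separate cultures, and the p-values therefore describe just the spread among these 6 samples, part of which may be technical. No row names LINC00901 (0 rows), so the overexpression itself was not checked.

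Levels are FPKM, which divide the fragments of a gene by its length and by the total of the library, and the depth behind them is unknown. All 13 mitochondrially encoded rows are at 0 in every library, although every cell uses these genes, so a 0 can be a failed estimate and is given only as listed at 0. The library sums were 87162 to 88738 FPKM in the vector group and 127768 to 128538 FPKM with overexpression. The median gene was accordingly 0.27 log2 (1.2-fold) higher with overexpression, and log2 differences below are given relative to it. Of the epithelial markers, KRT18 stood between 62.48 and 105.38 FPKM in all 6 libraries, whereas EPCAM did not exceed 0.14 and CDH1 did not exceed 0.08 FPKM. KRT18 and KRT8;KRT78 were lower with overexpression (means 100.1 and 70.8 FPKM, and 24.5 and 15.6 FPKM), while KRT19 was higher (3.71 and 23.9 FPKM), and the part of these shifts in the results below was not tested. Among 15 rows of leukocyte markers, 7 were listed at 0 throughout, among them PTPRC, CD3E, CD3D, MS4A1, HLA-DRA and CLEC4C. The 14 leukocyte rows with a single name summed to 0.63 to 1.17 FPKM in the vector libraries and to 1.33 to 3.04 FPKM with overexpression, and their part in the results below was not tested. The 6 single-name fibroblast rows summed to 189.1 to 204.5 FPKM with the vector and 174.0 to 198.6 FPKM with overexpression. Epithelial single-name rows summed to 94.4 to 110.2 and 85.5 to 112.4 FPKM, and endothelial rows to 0.14 to 0.28 and 0.48 to 0.64 FPKM. Fibroblast marker COL3A1 had means of 175.3 and 170.9 FPKM and COL1A2 18.1 and 13.1 FPKM, while COL1A1, DCN, LUM and PDGFRB did not exceed 1.99 FPKM. The part of these rows was not tested either. In bulk RNA, fewer cells of a type and less RNA per cell cannot be told apart.

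Interferons are secreted proteins that bind receptors on the cell surface and activate the kinases JAK1 and TYK2. These phosphorylate STAT proteins, STAT2 among them, which join IRF9 to form the transcription factor complex ISGF3. ISGF3 enters the nucleus and binds a short element called the interferon-stimulated response element (ISRE) in the promoters of its target genes. The products of those genes block viral entry, translation and genome copying, tag proteins with the ubiquitin-like modifier ISG15, and adjust the signal itself. Some of the same genes are also bound directly by IRF3 or IRF1 without secreted interferon, and tumour cells can carry them at a raised level in culture.

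The element that the members are known for can be read in their promoters, and 8 stretches of 60 bases are shown. They cover genes that rose (ISG15, BST2, IFIT3, IFIT1) and a gene next to them that did not pass the test (IFIT5). They also cover a gene of low mean level that was higher in every overexpression library (HERC5). The last 2 are genes listed at 0 in all libraries (IFI44L, EPSTI1). Each is written 5′ to 3′ along its gene, and capitals mark every match to the ISRE core GAAANNGAA on either strand. The sequences are RefSeq promoters of the build GRCh38.p14. For each gene the stretch before the start with the most bases in matches was taken. The stretches were thus picked for the motif and do not show how common it is.
ISG15, chr1:1013364-1013423, plus strand, 133 to 74 bases before the start: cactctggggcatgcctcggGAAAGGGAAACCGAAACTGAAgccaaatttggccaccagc
BST2, chr19:17405724-17405783, minus strand, 153 to 94 bases before the start: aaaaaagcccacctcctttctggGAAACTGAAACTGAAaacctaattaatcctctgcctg
IFIT3, chr10:89332428-89332487, plus strand, 101 to 42 bases before the start: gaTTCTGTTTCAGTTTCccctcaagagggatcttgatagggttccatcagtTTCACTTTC
IFIT1, chr10:89392488-89392547, plus strand, 135 to 76 bases before the start: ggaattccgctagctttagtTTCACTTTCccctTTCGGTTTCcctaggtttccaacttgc
IFIT5, chr10:89414508-89414567, plus strand, 60 to 1 bases before the start: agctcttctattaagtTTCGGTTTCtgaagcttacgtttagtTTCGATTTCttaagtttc
HERC5, chr4:88456995-88457054, plus strand, 124 to 65 bases before the start: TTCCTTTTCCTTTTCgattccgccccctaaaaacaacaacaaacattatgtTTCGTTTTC
IFI44L, chr1:78620258-78620317, plus strand, 190 to 131 bases before the start: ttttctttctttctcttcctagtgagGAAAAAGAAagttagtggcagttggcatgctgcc
EPSTI1, chr13:42992258-42992317, minus strand, 76 to 17 bases before the start: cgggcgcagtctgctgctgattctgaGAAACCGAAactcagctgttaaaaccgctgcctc

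The ISG15 stretch holds 3 overlapping copies of the core in 1 run, and the IFIT5 stretch carries separate copies much like that of IFIT1. Promoters of 300 bases, from 250 before to 50 after the start, were matched for 32 of the 40 members. No promoter was matched for IFIT2, IFITM2, MX2, OAS2, OASL, IRF7, USP18 and TRIM22. The ISRE core was found on either strand in 23 of the 32 (71.9%), against 8.11% of all 35116 RefSeq promoters of this length and 9.86% of 27305 genes with any promoter counted. By state in these libraries, it was found in 10 of 12 members called higher and 3 of 7 that were fitted and not called. It was found in 7 of 8 that were too low to be fitted, and 3 of 5 listed at 0 throughout. Among those too low, HERC5 and IFI44 were higher in every overexpression library and IFI27 was lower, so these states do not separate genes that rose from the rest. Here IFITM1 and DDX58 count as called through the joined rows IFITM2;IFITM1 and DDX58;TOPORS, whose values cannot be assigned to them alone. The 2 promoters without a match in that group were those of IFI35 and DDX58. The GAS core TTCNNNGAA, the element bound by STAT dimers, was found in 10 of 32 members (31.3%) against 9.38% of genes. The AP-1 core TGANTCA was found in 4 of 32 (12.5%) against 9.37% of genes. Matches may overlap each other and each one was counted. These are descriptions of letters in a window, and no binding was measured.

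The groups were compared with limma on log2(FPKM + 0.5) over the 9694 rows whose mean in the 6 libraries reached 1 FPKM. A row was called where its adjusted p was under 0.05. No scaling entered this fit. An adjusted p given without a named alternative therefore tests the unscaled difference, not the relative difference printed beside it. Of the 39 rows, 22 were fitted. Among the fitted members 13 were higher with overexpression, where 37.4% of all fitted rows were, and 0 were lower, where 11.9% were. The 13 that rose were OASL, IFI6, ISG15, IFITM2;IFITM1, BST2, IFIT1, IFIT3, IFITM3, IFI35, IFIH1, DTX3L, DDX58;TOPORS and PARP14. The other 9 fitted rows were not called: IFIT2, IFIT5, USP18, PARP9, IRF1, STAT2, RNF31;IRF9, HERC6 and OAS3. The median relative difference of the 22 was 0.37 log2, with 16 of them above the median gene and 6 below it. OASL was the 1 fitted member with a vector mean under 1 FPKM, so it passed the filter through the group where it was high. In 13 of the 22 fitted rows, the same 13 that were called, every overexpression library lay above every vector library. In 0 of the 22 every overexpression library lay below. Of all fitted rows, 44.9% separated upward in this way and 15.6% downward.

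Centring each library on its median removes the rise of the median gene, but not a rise that differs with expression level. With it 11 members were higher and 1 lower, beside 24.0% and 19.2% of all rows. Quantile normalization gave 11 higher and 0 lower (19.2% and 20.9% of all rows), and cyclic loess gave 10 and 0 (20.0% and 21.0%). After a correction for gene length and GC content, which could be made for 19 of the 22 rows, 8 were higher and 0 lower (20.1% and 20.0%). Of the 13 calls, 7 were made under each of these scalings, in that correction where length and GC were known, and without any single library. They were IFITM2;IFITM1, ISG15, IFIT1, IFIT3, OASL, BST2 and DTX3L. The share of all fitted rows that kept a call in the same way was not computed, so this count does not set the members apart.

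**Figure D1:**
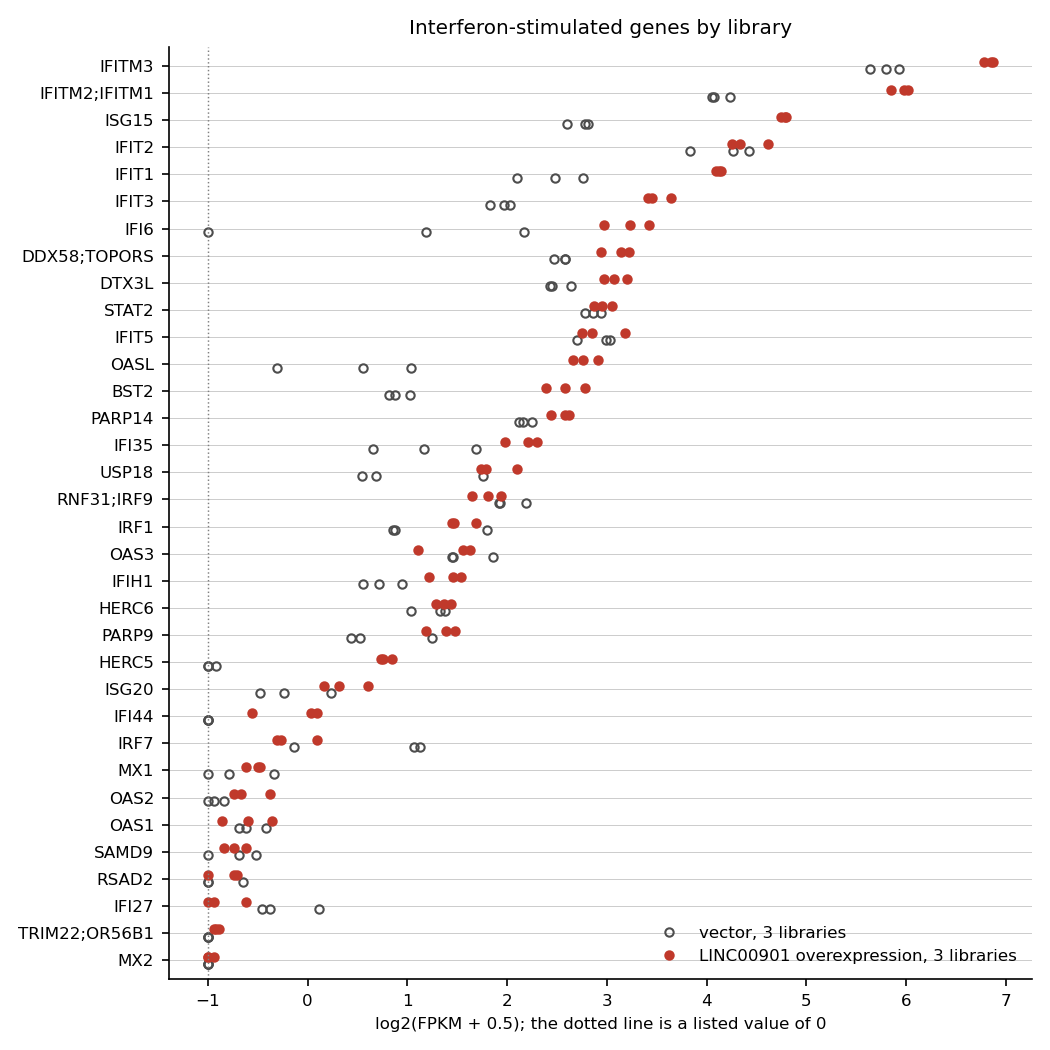
Level of each of the 34 rows that were above 0 in any library, as log2(FPKM + 0.5), with open circles for the 3 vector libraries and filled circles for the 3 overexpression libraries, ordered by the mean with overexpression. The filled circles lie apart to the right for ISG15, IFITM2;IFITM1, IFIT1, IFIT3, OASL and BST2, while those of IFIT2, IFIT5 and STAT2 overlap the open circles.

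The rows together held 160.3, 158.7 and 146.2 FPKM in vector replicates 1, 2 and 3 and 323.3, 339.3 and 332.4 FPKM in the overexpression libraries. As a share of the library sum this was 0.165% to 0.184% with the vector and 0.252% to 0.264% with overexpression, so the share rose less than the sum. The number of member rows above 0 was 27, 28 and 30 with the vector and 33, 32 and 33 with overexpression. The members were ordinary in level: the median fitted member had a mean of 5.03 FPKM, and the median of all fitted rows was 4.98 FPKM.

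ISG15 is a ubiquitin-like protein that is conjugated to other proteins and can also be secreted. Vector libraries held it at 5.58, 6.35 and 6.5 FPKM, and it was at 26.28, 27.12 and 27.21 FPKM with overexpression. The 3 overexpression values lie close together and far above the vector values. The means were 6.14 ± 0.494 and 26.9 ± 0.513 FPKM (SD, n = 3), a ratio of 4.37, and the relative difference was 1.78 log2 (SE 0.0896, limma adjusted p = 3.995e-05). This was the lowest adjusted p among the members, and it ranged from 3.47e-05 to 0.00111 over 18 alternatives. With the length and GC correction the relative difference of ISG15 was smaller, at 1.19 log2. HERC5, the ligase that attaches ISG15 to newly made proteins, was listed at 0, 0 and 0.03 FPKM with the vector and at 1.17, 1.19 and 1.30 FPKM with overexpression. HERC5 thus went from at or near 0 in every vector library to above 1 FPKM in every overexpression library. Its mean fell under the filter of 1 FPKM, and no fold is given against values of 0. When limma was fitted without the filter, HERC5 was higher with an adjusted p of 0.000213. That p-value rests on vector values at or near 0, which the added 0.5 makes almost equal and which can be failed estimates. It is therefore no support beyond the listed values. In that fit 25.7% of all rows were called higher and 9.68% lower, and among 34 member rows 15 were higher and 1 lower.

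HERC6, a relative of HERC5, was at 2.0, 1.55 and 2.09 FPKM with the vector and 2.20, 1.94 and 2.08 FPKM with overexpression. Its groups overlap, and its relative difference was -0.15 log2 (95% interval -0.48 to 0.18). USP18, the protease that removes ISG15 and also dampens the interferon receptor, was at 1.11, 2.88 and 0.96 FPKM against 2.95, 3.78 and 2.84 FPKM. Vector replicate 2 lies among the overexpression values of USP18, and the adjusted p was 0.0584. Without that library the limma adjusted p of USP18 was 0.00295, and over 17 alternatives it ranged from 0.00295 to 0.297. UBE2L6, the conjugating enzyme that hands ISG15 to the ligase, is outside the 40 but in the wider list of interferon-stimulated genes described below. It rose from 7.35, 9.54 and 11.15 FPKM to 27.27, 27.51 and 27.92 FPKM (relative difference 1.26 log2, limma adjusted p = 0.000378).

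IFIT proteins bind foreign RNA ends and block its translation, and their 4 members here did not move together. IFIT1 was at 6.30, 5.08 and 3.79 FPKM with the vector and at 17.24, 16.96 and 16.53 FPKM with overexpression. That is a relative difference of 1.41 log2 (SE 0.167, limma adjusted p = 0.000446). IFIT3, which stabilises IFIT1, was at 3.41, 3.57 and 3.05 FPKM against 11.99, 10.18 and 10.47 FPKM. IFIT3 had a relative difference of 1.30 log2 (SE 0.110, limma adjusted p = 0.000159). In both genes the lowest overexpression library was far above the highest vector library. IFIT2, which pairs with IFIT3 in RNA-binding complexes, was at 18.66, 20.94 and 13.75 FPKM against 18.60, 23.99 and 19.74 FPKM. Its groups overlap, and its relative difference was -0.03 log2 (95% interval -0.44 to 0.37, limma adjusted p = 0.298). IFIT5, which binds RNA as a single unit, was at 7.65, 7.48 and 6.02 FPKM against 8.58, 6.73 and 6.23 FPKM. Its interval, -0.60 to 0.11 log2 relative to the median gene, lies below the differences of IFIT1 and IFIT3. The sign of the relative difference of IFIT2 turned under 5 of the alternatives and that of IFIT5 under the length and GC correction, and neither passed the test in any of 18 alternatives.

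The IFIT genes are neighbours in the genome. The ratio of neighbours within a library, taken with 0.5 FPKM added to each value, hardly depends on a single scaling factor per library. Scalings that act by level, such as quantile normalization and cyclic loess, can change it. In RefSeq they lie on chromosome 10 in the order IFIT2, IFIT3, IFIT1 and IFIT5, with IFIT1B between IFIT3 and IFIT1. The log2 ratio of IFIT2 to IFIT3 was 2.23 ± 0.203 with the vector and 0.90 ± 0.292 with overexpression (SD, n = 3). The log2 ratio of IFIT1 to IFIT5 went from -0.46 ± 0.178 to 1.19 ± 0.199. Neither pair overlapped between the groups. IFIT3 to IFIT1, the 2 that rose, kept overlapping ratios of -0.51 ± 0.267 and -0.62 ± 0.103, and so did IFIT2 to IFIT5, at 1.26 ± 0.151 and 1.47 ± 0.358. HERC6 and HERC5 are adjacent on chromosome 4 and appear in the plot of these neighbours, but a ratio to values of 0 would be set by the added 0.5 and is not given. Ratios were computed for 11 pairs of neighbouring members with no value of 0, of which 5 did not overlap. The share of other gene pairs without overlap was not computed, and the IFIT pairs share genes, so they are not separate observations. The pairs were chosen after their values were seen, so no test is given.

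**Figure D2:**
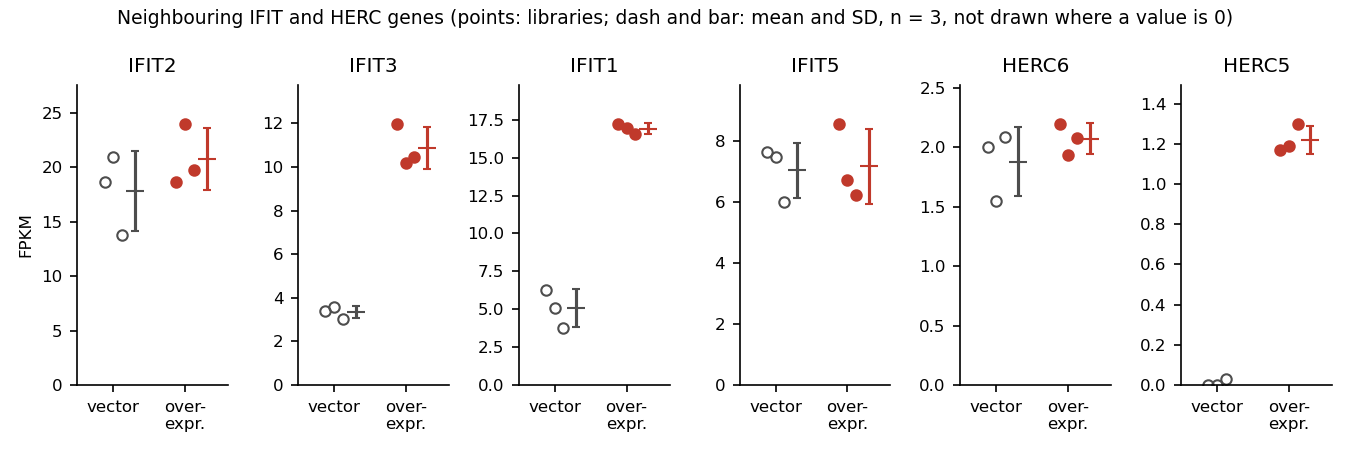
FPKM of 4 neighbouring IFIT genes and of the adjacent pair HERC6 and HERC5, each panel on its own axis from 0, with open circles for vector libraries, filled circles for overexpression libraries, and a dash and bar for the mean and SD (n = 3) where no value is 0. IFIT3, IFIT1 and HERC5 separate between the groups, whereas IFIT2, IFIT5 and HERC6 overlap.

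The IFITM proteins sit in membranes and hinder the fusion of enveloped viruses. The row IFITM2;IFITM1 was at 16.13, 16.32 and 18.29 FPKM with the vector and at 57.03, 62.43 and 64.56 FPKM with overexpression. The means were 16.9 ± 1.2 and 61.3 ± 3.88 FPKM (SD, n = 3), a ratio of 3.63, with a relative difference of 1.56 log2 (SE 0.0864, limma adjusted p = 5.25e-05). IFITM3, which acts in endosomes, had the highest level of all members and was at 60.46, 55.11 and 49.35 FPKM against 109.24, 116.45 and 114.89 FPKM. Its ratio of means was 2.06 and its relative difference 0.78 log2 (SE 0.0864, limma adjusted p = 0.000233). The IFITM3 call was lost with cyclic loess (adjusted p = 0.0548) and with the length and GC correction (0.0609), over a range of 0.000186 to 0.0609 in 18 alternatives. The log2 ratio of IFITM2;IFITM1 to IFITM3 rose from -1.67 ± 0.238 to -0.88 ± 0.0532 without overlap, so the joined row and IFITM3 changed unequally. IFITM1, IFITM2 and IFITM3 are close copies of each other on chromosome 11, and how reads shared between them were counted is not given in the sources used here, so the split between the rows is uncertain.

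BST2, or tetherin, holds budding virus particles to the cell surface. It was at 1.26, 1.33 and 1.54 FPKM with the vector and at 5.49, 6.37 and 4.73 FPKM with overexpression. The ratio of means was 4.02 and the relative difference 1.41 log2 (SE 0.141, limma adjusted p = 0.000247). BST2 was past the threshold in all 17 alternatives that kept its row (limma adjusted p 0.000241 to 0.00307). With the length and GC correction its relative difference was smaller, at 0.96 log2.

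Oligoadenylate synthetases make the short RNA messengers that activate RNase L, and OASL is their relative without that activity, which supports RIG-I signalling. OASL was at 0.31, 1.55 and 0.97 FPKM with the vector and at 5.84, 6.28 and 7.00 FPKM with overexpression. All 3 overexpression values exceed the highest vector value several times over. The means were 0.943 ± 0.620 and 6.37 ± 0.586 FPKM (SD, n = 3), and the relative difference was 2.08 log2 (SE 0.320, limma adjusted p = 0.00138). The enzymes themselves did not show this. OAS3 was at 2.25, 3.12 and 2.22 FPKM against 2.58, 1.66 and 2.44 FPKM, with overlapping groups and a relative difference of -0.42 log2 (95% interval -0.87 to 0.03). OAS1 was at 0.12, 0.15 and 0.25 FPKM against 0.05, 0.16 and 0.28 FPKM. OAS2 was at 0, 0.06 and 0.02 FPKM against 0.10, 0.13 and 0.27 FPKM, which is near 0 in both groups although every overexpression value was higher. OAS1 and OAS2 were below the filter, and fitted without it they had limma adjusted p-values of 0.885 and 0.0553.

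**Figure D3:**
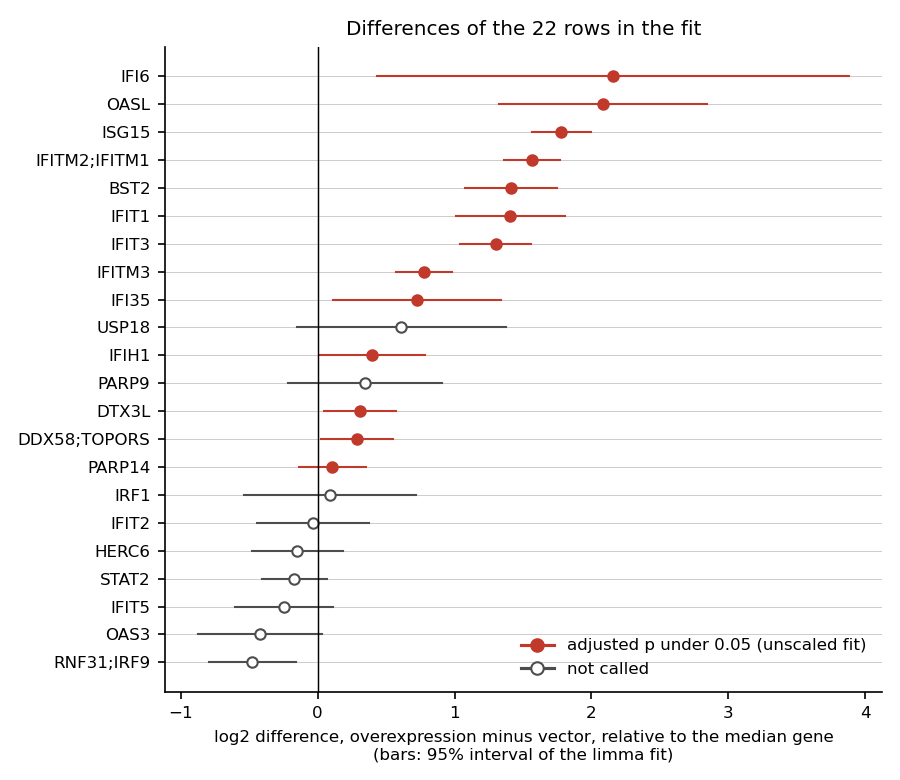
Log2 difference between overexpression and vector relative to the median gene for the 22 fitted rows, with the 95% interval of the limma fit, filled where the unscaled fit gave an adjusted p under 0.05. ISG15 and IFITM2;IFITM1 have narrow intervals at 1.78 and 1.56, IFI6 has a wide one from 0.44 to 3.88, and that of PARP14 spans 0 because its call is against the unscaled values.

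The cytosolic RNA sensors among the members rose less. IFIH1, also called MDA5, detects long double-stranded RNA. It was at 0.97, 1.14 and 1.42 FPKM with the vector and at 2.25, 1.82 and 2.40 FPKM with overexpression. Its relative difference was 0.40 log2 (SE 0.161, limma adjusted p = 0.0135), and the call was lost with median centring (0.0514) and without overexpression replicate 3 (0.0579), over a range of 0.0095 to 0.0579 in 17 alternatives. DDX58, or RIG-I, detects short RNA with a triphosphate end and shares its row with TOPORS, a ligase outside the pathway. DDX58;TOPORS was at 5.03, 5.50 and 5.50 FPKM against 8.83, 7.16 and 8.32 FPKM. Its relative difference was 0.29 log2 (SE 0.110). The limma adjusted p was 0.00638 unscaled and 0.0373 with median centring. The call was lost with quantile normalization (0.0569) and cyclic loess (0.0516), over a range of 0.00524 to 0.0569 in 16 alternatives.

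DTX3L and PARP9 form a ubiquitin ligase complex that is drawn to damaged chromatin, and PARP14 is a larger ADP-ribosyltransferase. DTX3L was at 4.88, 4.97 and 5.74 FPKM with the vector and at 8.70, 7.89 and 7.35 FPKM with overexpression. The relative difference of DTX3L was 0.31 log2 (SE 0.111). Its limma adjusted p was 0.00573 for the unscaled difference of 0.57 log2 and 0.0307 with median centring. PARP9 was at 0.85, 0.94 and 1.88 FPKM against 2.12, 1.77 and 2.28 FPKM. Here vector replicate 3 lies between the overexpression values, and the limma adjusted p of PARP9 was 0.0697. Without vector replicate 3 it was 0.00737, and over 17 alternatives it ranged from 0.00737 to 0.196. The adjacent pair kept its proportion, with a log2 ratio of PARP9 to DTX3L of -1.77 ± 0.331 and -1.73 ± 0.206 (SD, n = 3). PARP14, on the same stretch of chromosome 3, was at 3.85, 3.96 and 4.24 FPKM against 5.66, 4.92 and 5.47 FPKM. Its relative difference was 0.11 log2 (95% interval -0.14 to 0.35), so most of its unscaled rise of 0.37 log2 equals that of the median gene. The limma adjusted p of PARP14 was 0.0231 unscaled and 0.221 with median centring. It was 0.0567 and 0.05004 without vector replicates 1 and 2, and 0.0700 and 0.0809 without overexpression replicates 1 and 3, over a range of 0.0211 to 0.221 in 17 alternatives.

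None of the 3 fitted rows of transcription factors passed the unscaled test. STAT2, the subunit of ISGF3 that activates transcription, was at 7.20, 6.78 and 6.36 FPKM with the vector and at 7.21, 7.81 and 6.82 FPKM with overexpression. Its groups overlap, and its relative difference was -0.17 log2 (95% interval -0.41 to 0.07). The row RNF31;IRF9, which joins the DNA-binding subunit of ISGF3 to a subunit of the linear ubiquitin ligase, was at 3.29, 3.30 and 4.05 FPKM against 2.64, 3.34 and 2.99 FPKM. Its relative difference was -0.48 log2 (95% interval -0.80 to -0.16). The limma adjusted p of RNF31;IRF9 was 0.224 unscaled and 0.0397 with median centring, which made it the 1 member called lower there, over a range of 0.0397 to 0.480 in 15 alternatives. IRF1, which can drive many of these genes alone, was at 1.31, 1.34 and 2.97 FPKM against 2.72, 2.26 and 2.23 FPKM. Vector replicate 3 holds the highest value of IRF1, and the limma adjusted p was 0.298, or 0.0139 without that library (range 0.0139 to 0.889 in 17 alternatives). IRF7, which amplifies interferon production, was at 0.41, 1.68 and 1.59 FPKM against 0.33, 0.57 and 0.31 FPKM. It lay below the filter, its groups overlap, and fitted without the filter it had a limma adjusted p of 0.113.

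Several members named for their induction by interferon have little in common otherwise. IFI6, a mitochondrial and endoplasmic reticulum protein that protects against cell death, was listed at 3.99, 1.78 and 0 FPKM with the vector and at 7.34, 10.23 and 8.91 FPKM with overexpression. The vector libraries disagree widely, and the relative difference of 2.16 log2 had an SE of 0.727 (limma adjusted p = 0.0301). The IFI6 call was lost without vector replicate 2 (0.0551), without overexpression replicates 1, 2 and 3 (0.0644, 0.0825 and 0.0719), with a pseudocount of 0.1 (0.0695) and after correcting for length and GC (0.121). Its adjusted p ranged from 0.0102 to 0.121 in 18 alternatives. IFI35, a secreted and cytosolic partner of NMI, was at 1.75, 1.08 and 2.72 FPKM against 4.41, 4.13 and 3.45 FPKM. Relative to the median gene it was higher by 0.73 log2 (SE 0.258, limma adjusted p = 0.0180). The IFI35 call was lost without overexpression replicates 1 (0.0588) and 2 (0.0542) and after correcting for length and GC (0.347), over a range of 0.00514 to 0.347 in 17 alternatives. IFI44 was listed at 0 in all vector libraries and at 0.57, 0.52 and 0.18 FPKM with overexpression. It was called higher when fitted without the filter (limma adjusted p = 0.0110). IFI44 entered that fit only through the group where it was high, and its vector values can be failed estimates, so the p-value adds no support. IFI27, a mitochondrial protein that is among the most inducible genes in epithelium, went the other way, from 0.58, 0.27 and 0.23 FPKM to 0, 0.15 and 0.02 FPKM. It was the 1 member called lower without the filter (limma adjusted p = 0.0381).

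Many of the best known antiviral effectors had low values or were listed at 0 in both groups. Of the 39 rows, 17 had a mean under 1 FPKM, and the highest single value among these was 1.68 FPKM, for IRF7 in vector replicate 2. IFI44L, CMPK2, XAF1, SAMD9L and EPSTI1, 5 rows, were listed at 0 in all 6 libraries. MX1, a dynamin-like GTPase that traps viral nucleocapsids, was at 0.29, 0 and 0.08 FPKM against 0.21, 0.22 and 0.15 FPKM. MX2, its relative that acts at the nuclear pore, was listed at 0 except for 0.02 FPKM in overexpression replicate 1. RSAD2, or viperin, which makes a chain-terminating nucleotide, was at 0, 0 and 0.14 FPKM against 0.11, 0 and 0.10 FPKM. SAMD9, a restriction factor for poxviruses, was at 0, 0.12 and 0.20 FPKM against 0.15, 0.10 and 0.06 FPKM. ISG20, an RNA exonuclease, was at 0.68, 0.35 and 0.22 FPKM against 0.62, 1.02 and 0.74 FPKM, with overlapping groups. TRIM22;OR56B1 was listed at 0 in the vector libraries and at 0.03, 0.04 and 0.02 FPKM with overexpression. Fitted without the filter, MX1, MX2, RSAD2, SAMD9, ISG20 and TRIM22;OR56B1 were not called (limma adjusted p from 0.112 for ISG20 to 0.989 for SAMD9). The ISRE core was found both among members that were plainly expressed and among members that were low or listed at 0, as the stretches of IFIT1, HERC5 and EPSTI1 show. Of these, HERC5 was low in mean level but higher in every overexpression library.

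The rest of the pathway was read from lists written for this purpose, with earlier results of these data known. Rows for 21 interferon genes of types I, II and III were present, and 19 of them were listed at 0 in all libraries. The 2 exceptions were IFNL1, at 0.48 FPKM in overexpression replicate 3, and IFNL3, at 0.23 FPKM in overexpression replicate 1. In the vector libraries all 21 rows were listed at 0, which can be a failed estimate.

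Of 4 fitted receptor rows 1 was higher and 1 lower, beside 37.4% and 11.9% of all fitted rows. The same counts held with median centring, beside 24.0% and 19.2% of all rows. IFNGR2, the signalling chain of the receptor for interferon gamma, was at 12.31, 8.81 and 13.52 FPKM with the vector and at 21.77, 23.07 and 22.23 FPKM with overexpression (relative difference 0.68 log2, SE 0.155, limma adjusted p = 0.00293). IFNAR1, a chain of the receptor for type I interferon, was lower, at 9.03, 7.14 and 8.43 FPKM against 11.43, 10.47 and 10.38 FPKM with the vector. Its relative difference was -0.64 log2 (SE 0.112, limma adjusted p = 0.0290), and the IFNAR1 call was lost in 5 of the 6 fits that left out a library, with adjusted p-values from 0.0288 to 0.0766. The other chain shares the row IL10RB;IFNAR2;AP000295, which was at 3.21, 3.29 and 3.2 FPKM against 3.27, 4.50 and 3.58 FPKM and was not called (limma adjusted p = 0.276). IFNLR1, the specific chain for interferon lambda, was listed at 0 throughout.

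Of 10 fitted rows of JAK-STAT signalling 4 were higher and 0 lower. With median centring 3 were higher and 1 lower, beside 24.0% and 19.2% of all rows. The unscaled share, 40.0%, is near the 37.4% of all fitted rows called higher, so the count sets the list no further apart. JAK1, the kinase shared by the receptors for all 3 types of interferon, was at 13.50, 13.06 and 13.75 FPKM with the vector and at 26.16, 24.76 and 26.60 FPKM with overexpression (relative difference 0.65 log2, SE 0.0753, limma adjusted p = 0.000227). The JAK1 groups are tight and well apart. TYK2, its partner at the type I receptor, was at 6.91, 7.80 and 7.54 FPKM against 9.61, 10.20 and 7.91 FPKM and was not called (limma adjusted p = 0.0812, or 0.0432 without overexpression replicate 3; range 0.0432 to 0.993). STAT3, which answers cytokines of the interleukin 6 family, was at 7.65, 6.53 and 7.43 FPKM against 12.13, 13.29 and 9.91 FPKM (relative difference 0.40 log2, limma adjusted p = 0.00607). With median centring the limma adjusted p of STAT3 was 0.0284. The STAT3 call was lost with quantile normalization (0.0675) and cyclic loess (0.0678), over a range of 0.00514 to 0.0678 in 18 alternatives.

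Genes of nucleic acid sensing went in both directions. Of 15 fitted rows 3 were higher and 4 lower, beside 37.4% and 11.9% of all fitted rows. With median centring 1 was higher and 5 lower, beside 24.0% and 19.2% of all rows. After the length and GC correction 0 were higher and 6 lower of 12, beside 20.1% and 20.0%. The median relative difference of the 15 was -0.32 log2, beside 0.06 log2 for the JAK-STAT rows. SAMHD1, which depletes nucleotides, fell from 7.62, 7.58 and 6.71 FPKM to 3.69, 4.68 and 4.08 FPKM (relative difference -1.01 log2, SE 0.118, limma adjusted p = 0.00249). CGAS, the sensor of cytosolic DNA, fell from 7.16, 9.72 and 10.02 FPKM to 5.67, 5.43 and 5.80 FPKM (relative difference -0.88 log2, SE 0.140, limma adjusted p = 0.0112). In both genes every overexpression library lay under every vector library. TRAF3, an adaptor below several sensors, was at 4.65, 3.18 and 5.62 FPKM against 2.75, 2.64 and 1.69 FPKM (relative difference -1.06 log2, limma adjusted p = 0.0295). IKBKE, a kinase that activates IRF3 and IRF7, was at 3.07, 2.33 and 2.04 FPKM against 1.69, 1.38 and 1.78 FPKM (relative difference -0.75 log2, limma adjusted p = 0.0490). Leaving out a library ended the TRAF3 call in 4 of 6 fits (adjusted p up to 0.0840) and the IKBKE call in 5 of 6 (up to 0.140). The 3 higher rows, named after their values were seen, were DHX58, TICAM1 and ADAR. DHX58, a regulator of RIG-I and MDA5 of the same helicase family, was at 0.88, 0.76 and 0.82 FPKM against 1.69, 2.40 and 1.34 FPKM (relative difference 0.52 log2, limma adjusted p = 0.0144). With a vector mean of 0.82 FPKM, under the filter, DHX58 was fitted through its higher group. The calls of TICAM1 and ADAR were each lost in 5 of the 6 fits that left out a library, with limma adjusted p-values up to 0.0996 and 0.0803.

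Of 17 fitted negative regulators of interferon signalling 6 were higher and 1 lower. With median centring 5 were higher and 1 lower, beside 24.0% and 19.2% of all rows. The unscaled share called higher, 35.3%, is near the 37.4% of all fitted rows. After the length and GC correction 1 was higher and 1 lower, beside 20.1% and 20.0% of all rows. SOCS3, a feedback inhibitor of JAK kinases, was at 0.39, 0.67 and 1.09 FPKM with the vector and 1.96, 2.41 and 1.67 FPKM with overexpression (relative difference 0.81 log2, limma adjusted p = 0.00994, or 0.0675 with the length and GC correction). The vector mean of SOCS3, 0.717 FPKM, was under the filter, so this row too was fitted through its higher group. PIAS4, which adds SUMO to proteins, was at 2.94, 3.24 and 3.55 FPKM against 5.39, 7.35 and 5.84 FPKM (relative difference 0.57 log2, limma adjusted p = 0.00332). OTUD5, a deubiquitinase that acts on TRAF3, was at 8.69, 6.68 and 6.61 FPKM against 13.87, 12.82 and 12.86 FPKM (relative difference 0.55 log2, limma adjusted p = 0.00215, or 0.0710 with the length and GC correction). PIAS2, a relative of PIAS4, fell from 6.41, 7.52 and 6.09 FPKM to 4.18, 3.46 and 3.59 FPKM (relative difference -1.02 log2, limma adjusted p = 0.00287), so these relatives went in opposite directions.

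A wider list of 65 rows of other interferon-stimulated genes had 45 in the fit, of which 22 were higher and 0 lower (48.9% higher, beside 37.4% of all fitted rows). With median centring 14 were higher and 2 lower (31.1% and 4.44%, beside 24.0% and 19.2% of all rows). With cyclic loess 13 were higher and 3 lower (28.9% and 6.67%, beside 20.0% and 21.0%). After correcting for length and GC 10 were higher and 4 lower of 41 (24.4% and 9.76%, beside 20.1% and 20.0%). Their median relative difference was 0.21 log2, beside 0.37 log2 for the members. RARRES3, a phospholipase-related growth suppressor, rose from 0.28, 0.53 and 0.51 FPKM to 2.97, 3.35 and 2.84 FPKM (relative difference 1.66 log2, limma adjusted p = 0.000247). Its vector mean of 0.44 FPKM lies under the filter, so it entered the fit through the group where it was high. The same holds for DHX58 and for 2 called rows named after their values were seen. These are TRANK1 and SP100, with vector means of 0.873 and 0.977 FPKM. DDX60, a helicase-like antiviral protein, rose from 1.33, 1.23 and 1.02 FPKM to 3.85, 3.10 and 4.16 FPKM (relative difference 1.04 log2, limma adjusted p = 0.000715). TNFSF10, the death ligand TRAIL, rose from 2.75, 1.56 and 2.03 FPKM to 5.83, 5.28 and 5.90 FPKM (relative difference 0.998 log2, limma adjusted p = 0.00153). DDX60, TNFSF10 and UBE2L6 separated between the groups without overlap and were past the threshold in each alternative run on them. CXCL9, CXCL10 and CXCL11, chemokines that interferon gamma induces strongly, were listed at 0 in all libraries. Some genes, DHX58 and ADAR among them, stand in 2 of these lists each, so the counts of the lists are not separate from each other.

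**Figure D4:**
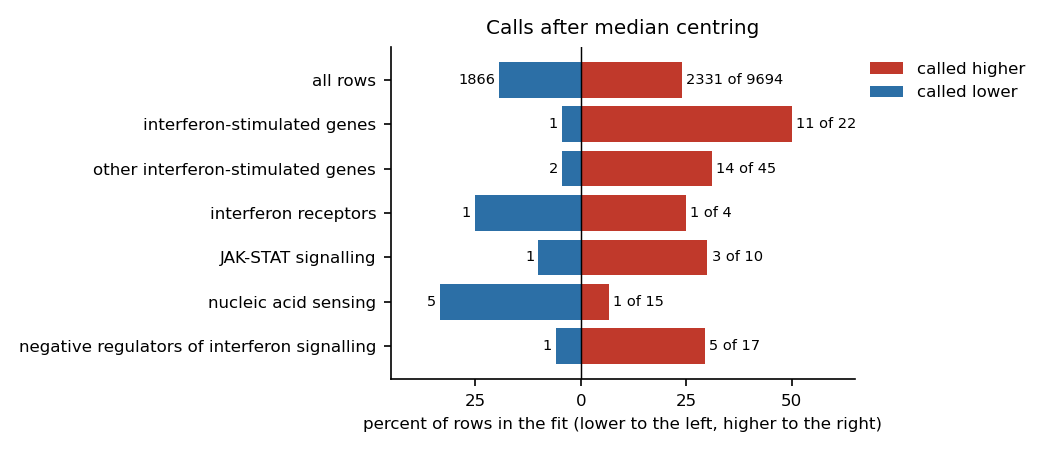
Share of fitted rows called higher (to the right) and lower (to the left) with overexpression after median centring, for all rows, the members and 5 pathway lists, with the numbers beside each bar. The members have 11 of 22 rows higher and 1 lower, beside 24.0% and 19.2% of all rows, and nucleic acid sensing has 1 of 15 higher and 5 lower.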

How the data were processed

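RNA of 6 libraries was analysed, 3 per group, grouped by the labels. The authors deposited FPKM with at most 2 decimals, made with cutadapt, FastQC and HISAT2 on hg19 per the submitters' processing notes. For their versions and the tool behind the FPKM, the sources used here give nothing. All 6 value columns matched a sample (0 unmatched), and no whole-read steps were found in low values. Values were transformed to log2(FPKM + 0.5), rows with a mean of at least 1 FPKM were kept, and groups were compared with limma 3.58.1 (R 4.3.3, intensity trend, no replicate block) with Benjamini-Hochberg adjustment over 9694 rows at 0.05. No scaling entered that fit. Differences are printed after subtracting the median row's. The fit was tested on simulated data. Length and GC content came from GENCODE 29 by symbol for 8830 rows (91.1%), and promoters and gene order from RefSeq. Python 3.11.15 with pandas 2.3.3 and matplotlib 3.10.9 did the rest.

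The members and lists were chosen with earlier results of these data known. Any member could be named. Of each pathway list up to 4 called rows were named, by absolute relative difference, with JAK1, TYK2, IFNAR1 and IFNAR2 always. Some items that this rule takes are not reported here. Alternatives were other pseudocounts (1, 0.1), filters (none, 5 FPKM), scalings, thresholds and variance models, joined rows left out, a replicate block and each library left out. A comparison of protein sequences was planned and not run.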

Additional observations from a re-analysis of the deposited data

How the results depend on the processing

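The 13 members called became 8 of 11 with a mean of at least 5 FPKM (49.6% of all rows higher), 8 of 19 after correcting for length and GC, and 8 of 22 with an unscaled log2 difference of at least 1. All 4773 calls became 2818 of 4830 with a mean of at least 5 FPKM, 2881 at an adjusted p of 0.01 and 1223 of 9694 with an unscaled log2 difference of at least 1, and the 39 calls of the pathway lists became 22, 23 and 9 in that order. Leaving out each library gave 10 to 15 of 22 members higher and 0 lower, beside 28.6% to 34.8% of all rows higher and 8.38% to 10.4% lower. The members' median relative difference of 0.37 log2 became 0.51 with a pseudocount of 0.1 and 0.66 with a mean of at least 5 FPKM, and 0.29 to 0.45 when each library was left out. Signs turned for IFIT2 (0.13 log2 without the filter, 0.0596 with the length and GC correction, and -0.21 to 0.10 without single libraries), HERC6 (0.0204 without the filter), IFIT5 (0.024 with the length and GC correction) and IRF1 (-0.07 to 0.40 without single libraries). Of 423 recomputed single values, 377 kept their sign and side of the threshold, 32 lost a call, 5 gained one and 9 changed sign.

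No shift shared by same-numbered libraries was visible across genes, with correlations of -0.037, -0.0057 and -0.0050 after removing group means. With 3 libraries per group this cannot show whether they were prepared in pairs. With the replicate block 13 members were called and 4227 of all rows. The members differed, since PARP14 was not called there (limma adjusted p = 0.0586) and USP18 was (0.0278). Depth is unknown, so no counting error could be given for low members.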
